A study of Mus musculus with 16 samples.

Results

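The narrow succinyllysine regions described here are the 200 to 500 bp rows of the deposited succinyllysine list that share no base with a deposited H3K27me3 region. They number 7245 of 10888 rows, or 66.5% of the list, and cover 1.90 Mb, or 25.4% of the sequence the list covers. The members were thus chosen by width and by the absence of H3K27me3, and neither is a finding. The list comes from chromatin immunoprecipitation and sequencing (ChIP-seq) of 2 lines of immortalized mouse embryonic fibroblasts, connective tissue cells grown continuously in culture. Both lines carried R26M2rtTA/+, a reverse tetracycline transactivator in one Rosa26 allele, and TetOcre, a Cre recombinase that doxycycline switches on through that transactivator. The experimental line was Sdhcfl/fl and the control line Sdhcfl/wt, so Cre can remove both copies or a single copy of Sdhc, which encodes a membrane anchor of succinate dehydrogenase. Both lines received 1 µg/mL doxycycline and were collected at day 16, with 2 succinyllysine samples each. A single succinyllysine list stands for these 4 samples, with no value per sample, so the lines could not be compared and read depth is unknown. It is also unknown whether a given region was present in both lines or in 1 of them. Counts and intervals below describe this single list and cover counting error alone. The labels used here do not say whether samples of a line were separate cultures.

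Lysine succinylation is the attachment of a succinyl group, donated by succinyl-CoA, to the side chain of lysine. It is best known on mitochondrial enzymes, where the sirtuin SIRT5 removes it, and it also occurs on histones. Succinate dehydrogenase oxidises succinate to fumarate in the tricarboxylic acid cycle, and cells without it accumulate succinate. H3K4me3 marks histones at the promoters of active genes, while H3K27me3, written by Polycomb proteins, marks silenced ones.

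Of the 7245 regions, 4392 were 200 bp wide, the smallest width in the list, 1570 were 300 bp, 883 were 400 bp and 400 were 500 bp. Beside 55.6% of all 21883 protein-coding genes, H3K4me3 lay at a gene end of 9 of 10 fibroblast marker genes, with Thy1 the exception. It was also listed at 3 of 7 epithelial, 1 of 5 haematopoietic and 1 of 5 endothelial markers. None of these 27 genes had a narrow succinyllysine region at an end, a count of 0 that carries little information when 0.713% of all genes had one.

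The few promoter windows that a narrow region reached differed in composition, which the following promoters show. Composition was counted over the whole window and not over the shared bases alone. Of 32851 promoter windows in the RefSeq table for GRCm38.p6 (the coordinates of mm10), each from 250 bases before to 50 after a gene start, 35 shared a base with a narrow region. The 6 printed belong to genes of the lists described below, with every CpG, the dinucleotide that is dense in the promoters of broadly used genes, in capitals. All are written 5′ to 3′ on the gene's strand. The first 4 belong to odorant, vomeronasal and zinc finger genes and had no H3K4me3 region, and the last 2 belong to Rps7, a ribosomal protein gene, and Dld, the gene of dihydrolipoamide dehydrogenase, and had one.
Olfr152: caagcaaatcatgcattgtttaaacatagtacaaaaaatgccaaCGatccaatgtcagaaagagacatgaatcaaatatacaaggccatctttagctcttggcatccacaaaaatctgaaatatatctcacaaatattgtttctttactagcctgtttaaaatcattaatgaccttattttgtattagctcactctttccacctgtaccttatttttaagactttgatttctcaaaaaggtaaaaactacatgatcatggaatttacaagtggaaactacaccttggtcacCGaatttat
Olfr1312: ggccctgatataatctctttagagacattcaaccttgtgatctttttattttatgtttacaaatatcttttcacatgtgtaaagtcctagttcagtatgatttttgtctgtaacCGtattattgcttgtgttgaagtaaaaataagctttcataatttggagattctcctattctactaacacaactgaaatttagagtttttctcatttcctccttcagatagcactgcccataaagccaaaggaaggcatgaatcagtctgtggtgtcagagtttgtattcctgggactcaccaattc
Zfp982: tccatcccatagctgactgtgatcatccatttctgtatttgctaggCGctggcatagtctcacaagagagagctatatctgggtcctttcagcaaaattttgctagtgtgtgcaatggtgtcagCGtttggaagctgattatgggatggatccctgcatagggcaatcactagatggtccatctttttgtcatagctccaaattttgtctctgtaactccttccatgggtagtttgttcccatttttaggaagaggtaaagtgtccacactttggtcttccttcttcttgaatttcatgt
Vmn2r24: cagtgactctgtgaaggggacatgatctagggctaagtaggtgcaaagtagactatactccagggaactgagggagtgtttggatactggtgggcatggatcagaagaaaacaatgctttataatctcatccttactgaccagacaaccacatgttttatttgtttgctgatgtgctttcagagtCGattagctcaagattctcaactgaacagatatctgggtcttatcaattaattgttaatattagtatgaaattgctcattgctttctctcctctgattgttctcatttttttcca
Rps7: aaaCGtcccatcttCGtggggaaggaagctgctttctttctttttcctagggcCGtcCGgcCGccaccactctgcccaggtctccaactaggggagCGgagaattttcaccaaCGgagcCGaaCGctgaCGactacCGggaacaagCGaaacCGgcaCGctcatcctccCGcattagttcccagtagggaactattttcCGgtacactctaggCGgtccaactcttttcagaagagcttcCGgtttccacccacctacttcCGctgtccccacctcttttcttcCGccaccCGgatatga
Dld: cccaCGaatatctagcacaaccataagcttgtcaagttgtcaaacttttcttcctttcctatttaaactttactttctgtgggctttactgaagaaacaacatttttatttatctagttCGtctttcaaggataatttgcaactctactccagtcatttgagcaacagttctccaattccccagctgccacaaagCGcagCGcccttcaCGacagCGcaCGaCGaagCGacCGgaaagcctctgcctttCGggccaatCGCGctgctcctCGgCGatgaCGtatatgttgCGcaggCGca

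The Olfr152 window (chr2:87782286-87782585, plus strand) held 2 CpG in 300 bases and shared 185 bases with a 300 bp narrow region at chromosome 2, 87782401 to 87782700. The Olfr1312 window (chr2:112042981-112043280, minus strand) held 1 CpG and shared 120 bases with a 400 bp region. The Zfp982 window (chr4:147500436-147500735, plus strand) held 2 CpG and shared 265 bases with a 300 bp region. The window of Vmn2r24 (chr6:123778721-123779020, plus strand), which encodes a pheromone receptor, held 1 CpG and shared 180 bases with a 200 bp region. By contrast, the Rps7 window (chr12:28635904-28636203, minus strand) held 21 CpG and shared its outermost 3 bases with a 400 bp region, and the Dld window (chr12:31351422-31351721, minus strand) held 18 CpG and shared 21 bases with a 500 bp region.

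Grouped by H3K4me3, the 35 windows differed in the same way. The 23 without H3K4me3 had a median of 3 CpG and 43.3% G+C, and the 12 with H3K4me3 had a median of 19 CpG and 56.3% G+C. Over all 32851 windows the medians were 7 CpG and 52.7% G+C, and over the 13231 windows touched by H3K4me3 they were 22 CpG and 62.3% G+C. Higher CpG in windows with H3K4me3 is thus not particular to those that narrow regions reached. Windows touched by succinyllysine regions of 600 to 1000 bp had a median of 20 CpG and those touched by regions of 1100 bp or more 15, without a split by H3K4me3. GGGCGG, the core of a GC box, was searched on both strands and occurred in 1 of the 23 and in 7 of the 12. It occurred in 35.7% of all windows and in 67.8% of those touched by H3K4me3. TATAAA, searched likewise, occurred in 5 of the 23 and in 0 of the 12, beside 13.6% of all windows and 6.30% of those touched by H3K4me3. A match to such letters is a description of the sequence and not a bound site.

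Most narrow regions lay outside protein-coding genes and away from their ends. By midpoint, 72.3% were intergenic (5238 of 7245, 95% exact Clopper-Pearson interval 71.3 to 73.3), 25.5% lay inside a protein-coding gene (1851) and 2.15% lay within 1000 bp of an outer end of such a gene (156, interval 1.83 to 2.51). These classes take up 60.5%, 36.5% and 2.93% of the chromosome span, so gene ends held a smaller share of narrow regions than of sequence. Succinyllysine regions of 600 to 1000 bp outside H3K27me3 were at gene ends in 31.1% of 1045 cases, and those of 1100 bp or more in 18.3% of 1938. The narrow regions were lower than both, and higher in their intergenic share (36.1% and 42.3% in the wider classes). Lower gene-end and higher intergenic shares held in 19 of 19 autosomes against either class. Across the 7 planned comparisons of shares with the wider classes, the largest adjusted p was 1.05e-112 (two-sided Fisher's exact test, Benjamini-Hochberg). Neighbouring regions are not independent, so these p-values are too small.

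The median distance to the nearest protein-coding gene was 68.6 kb (interval of the median 62004 to 75165 bp, quartiles 0 and 263.4 kb), with genes counted at 0 where a region lay inside one. For both wider classes the median was 0. To the nearest outer gene end the medians were 131.5 kb for narrow regions, 7.36 kb for those of 600 to 1000 bp and 7.71 kb for those of 1100 bp or more. The farthest narrow region was 2.17 Mb from any protein-coding gene. Narrow regions were also the farthest from RefSeq starts, with a median of 85.4 kb against 7.61 and 5.88 kb in the wider classes. A start lay within 1000 bp of 1.997% of 6961 narrow regions, against 34.5% and 33.9% in the wider classes. Within 10 kb of a protein-coding gene lay 34.1% of narrow regions, beside 47.6% of the span. For outer gene ends these shares were 11.1% and 20.4%. Long noncoding RNA genes contained 6.998% of narrow midpoints and annotated pseudogenes 0.897%, beside 8.18% and 1.00% of the span. To the nearest annotated gene of any kind the median was 10.0 kb, with 49.9% of narrow regions within 10 kb. That median was 0 for both wider classes. No midpoint lay in an annotated miRNA, tRNA, snoRNA or snRNA gene, classes that each take up between 0.00113% and 0.00585% of the span, so that a count of 0 carries no information.

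H3K4me3 was rare at narrow regions, and where it was present its region was usually narrow as well. An H3K4me3 region shared at least 1 bp with 312 of the 7245 (4.31%, interval 3.85 to 4.80), against 46.3% of regions of 600 to 1000 bp and 46.5% of those of 1100 bp or more, lower in 19 of 19 autosomes. Wider regions have more room to touch another. With the midpoint required to lie in H3K4me3, the share was 3.46%, 41.0 percentage points below that of regions of 600 to 1000 bp. It was 34.6 points below that of regions of 1100 bp or more. By touching, these differences were 42.0 and 42.2 points. Of the 312, the widest H3K4me3 region touched was 200 to 500 bp in 239 cases (76.6%), 600 to 1000 bp in 23 and 1100 bp or more in 50. The median width touched was 300 bp, while the H3K4me3 list had a median of 1100 bp.

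**Figure D1:**
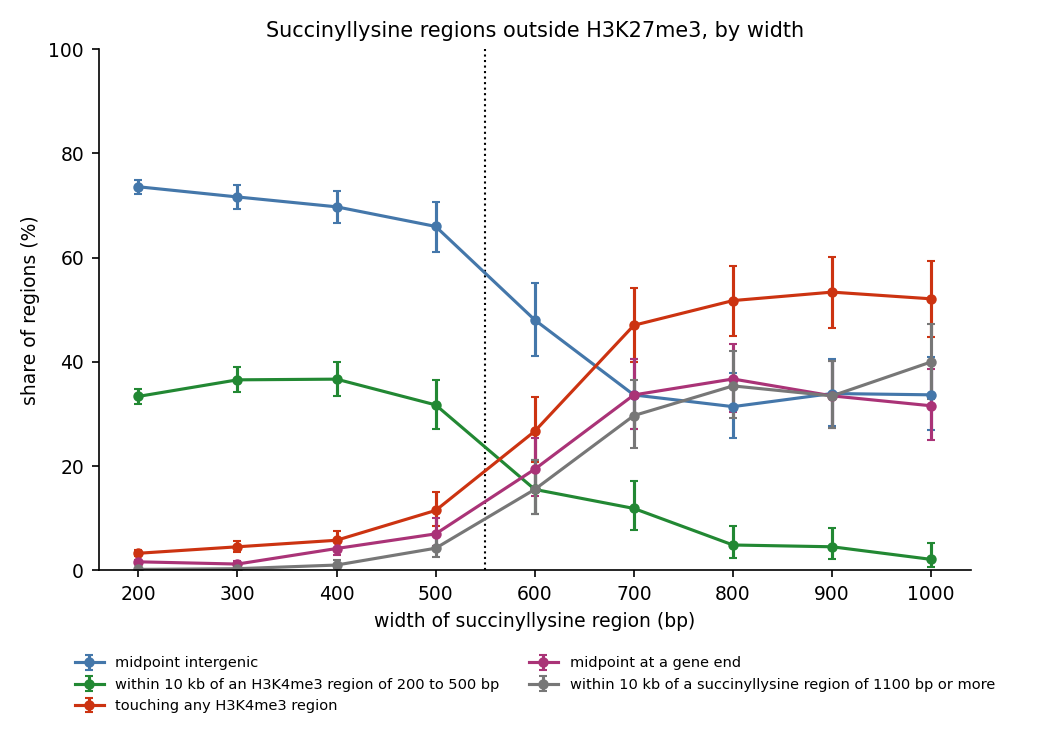
Share of succinyllysine regions outside H3K27me3 (y axis, %) by width (x axis, bp), with 95% exact intervals as bars; the dotted line separates regions of 500 and 600 bp. From 500 to 600 bp the share touching H3K4me3 went from 11.5% to 26.7% and the intergenic share from 66.0% to 48.1%.

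The shares changed step by step across the upper width limit, with no gap in width between the classes. Of the 400 regions of 500 bp, just inside, 11.5% touched H3K4me3, 7% were at gene ends and 4.25% lay within 10 kb of a wide succinyllysine region. Of the 206 regions of 600 bp, just outside, the shares were 26.7%, 19.4% and 15.5%. At 200 bp they were 3.28%, 1.64% and 0.182%. At the other limit, 114 narrow regions abutted an H3K27me3 region without sharing a base and 88 stopped 100 bp short of one, while the 553 regions of the same widths that touched H3K27me3 also touched H3K4me3 in 12.5% of cases.

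Narrow succinyllysine regions were rarely close to wide ones. Wide regions are those of 1100 bp or more, whether or not they touch H3K27me3. The median distance from a narrow region to the nearest wide one was 1718.5 kb (quartiles 885.5 and 3485.9 kb), while regions of 600 to 1000 bp had a median of 157 kb. Within 10 kb of a wide region lay 39 of 7245 narrow regions (0.538%, interval 0.383 to 0.735) and 322 of 1045 regions of 600 to 1000 bp (30.8%). The difference of 30.3 percentage points had the same direction in 19 of 19 autosomes (two-sided Fisher's exact test, adjusted p = 1.96e-260). Stretches within 10 kb of a wide region make up 1.14% of the chromosome span, which the narrow regions' 0.538% falls below. For regions of 600 bp or more the order was the other way, with 2.11% of narrow regions within 10 kb and 1.70% of the span. With neighbours of the list within 1000 bp joined before widths were taken, 1.47% of narrow regions lay within 10 kb of a wide one, and the difference was smaller, 12.3 points. That share is no longer below 1.14%, and the share of the span was not recomputed for joined regions.

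Narrow regions stood close to narrow regions of the histone marks and away from wide ones. Of the 7245, 34.4% lay within 10 kb of an H3K4me3 region of 200 to 500 bp, stretches that make up 5.80% of the span. By comparison, 1.41% lay within 10 kb of an H3K4me3 region of 1100 bp or more, which accounts for 9.74% of the span. For H3K27me3 the same 2 shares were 41.0% near regions of 200 to 500 bp (16.9% of the span) and 0.607% near regions of 1100 bp or more (6.33% of the span). The H3K27me3 values are limited by the rule, which removed regions that touched that mark. Regions of 1100 bp or more in the succinyllysine list were the reverse, with 1.86% within 10 kb of a narrow H3K4me3 region and 60.5% within 10 kb of a wide one. Seen from the H3K4me3 list, 27.7% of its 10094 regions of 200 to 500 bp and 0.966% of its 13663 regions of 1100 bp or more lay within 10 kb of a narrow succinyllysine region. Narrow H3K4me3 regions also shared the intergenic location, at 68.0% against 8.56% of wide ones.

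Along the chromosomes the counts of narrow succinyllysine and narrow H3K4me3 regions followed each other closely. Over 502 windows of 5 Mb on the autosomes, Spearman's rho between them was 0.87. Within single autosomes it ran from 0.59 on chromosome 7 to 0.96 on chromosome 10, with a median of 0.87, and was above 0 in all 19. Against H3K4me3 regions of 1100 bp or more rho was -0.27, against succinyllysine regions of 1100 bp or more -0.24, and against protein-coding genes -0.19. With windows of 1 Mb the rho for narrow H3K4me3 was 0.75, and with 100 kb 0.48. These are descriptions over windows that share the same cells, aligner and sequence composition. How easily reads align in a window, its copy number in these lines and its unknown sequence differ between windows, and their part in the relation was not tested.

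**Figure D2:**
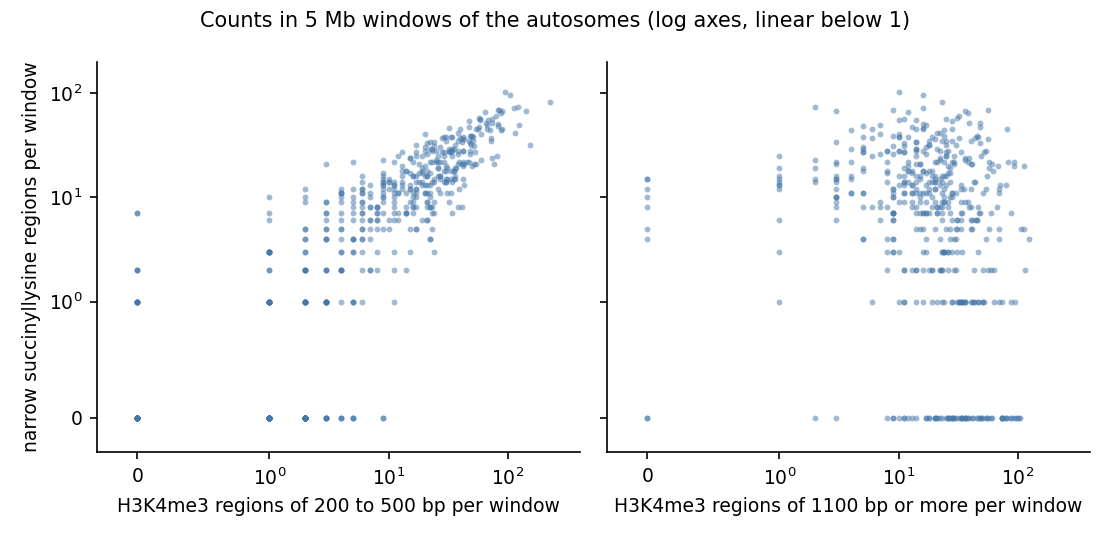
Each point is a 5 Mb window of an autosome (502 windows); the y axis counts narrow succinyllysine regions and the x axes count H3K4me3 regions of 200 to 500 bp (left) and of 1100 bp or more (right), on log axes that are linear below 1. The left panel forms a band (rho 0.87) and the right panel a broad cloud (rho -0.27).

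The number of narrow regions did not rise with the number of genes in a window, whereas that of wide regions did. Windows of 5 Mb with 0 to 9 genes averaged 14.9 narrow regions, those with 10 to 19 genes 17.1 narrow regions and those with 80 genes or more 12.1. For succinyllysine regions of 1100 bp or more the averages at 10 to 19 and at 80 or more genes were 0.938 and 10.9, and for H3K4me3 regions of that width 11.5 and 65.8. The spread within each class of windows was wide, from 0 to 103 narrow regions where there were 10 to 19 genes and from 0 to 67 where there were 80 or more.

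Narrow regions were unevenly spaced. The median gap between neighbours on a chromosome was 51.6 kb and the mean gap 346.1 kb, a ratio of 0.149. The same ratio was 0.142 for narrow H3K4me3 regions, 0.264 for H3K4me3 regions of 1100 bp or more and 0.0584 for succinyllysine regions of 1100 bp or more. Another narrow region lay within 10 kb for 2309 of 7245 (31.9%, interval 30.8 to 33.0) and within 50 kb for 4916 (67.9%). Abutting pairs, with no base between them, numbered 184. With neighbours within 1000 bp joined first, 23.3% had another within 10 kb. On the autosomes 83 of 502 windows of 5 Mb (16.5%) held 50% of the regions, and 73 windows (14.5%) held none.

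**Figure D3:**
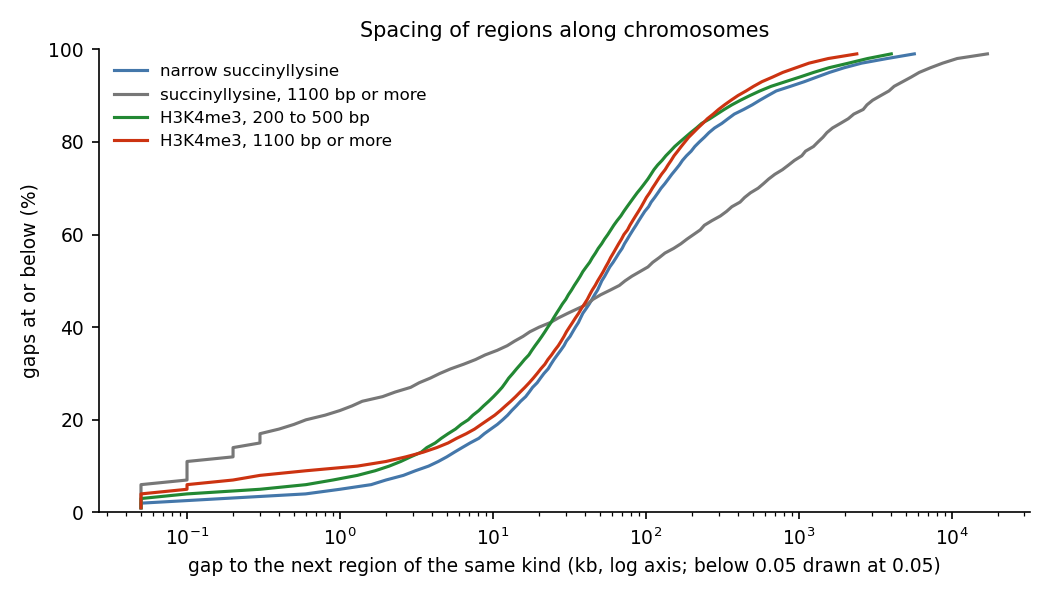
Cumulative share of gaps (y axis, %) by gap length to the next region of the same kind (x axis, kb, log axis; gaps below 0.05 kb are drawn at 0.05). The narrow succinyllysine curve (median 51.6 kb) runs close to both H3K4me3 curves (medians 35.7 and 48.5 kb), while gaps between succinyllysine regions of 1100 bp or more spread over a wider range.

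Regions chained with gaps of 10 kb or less formed 980 groups of 2 or more, of which 230 had at least 3 and 25 at least 5. The largest group held 12 narrow regions in 38.5 kb of chromosome 2 (161394501 to 161433000), 89.0 kb from Ptprt, which encodes a receptor tyrosine phosphatase. Of these 12, 6 were 200 bp wide, 3 were 300 bp, 2 were 400 bp and 1 was 500 bp, with a median gap of 4 kb. The same stretch held 3 narrow and 0 wide (1100 bp or more) H3K4me3 regions, and 1 of the 12 touched H3K4me3. It also held 6 H3K27me3 regions. The next group held 9 regions in 31.1 kb of chromosome 2 (149314201 to 149345300), 59.9 kb from Cst10, a gene of the cystatin family of protease inhibitors. It held 5 narrow H3K4me3 regions and 0 wide ones, and 2 H3K27me3 regions.

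At a coarser scale the densest 1 Mb window was chromosome 2, 149000001 to 150000000, with 68 narrow regions, touching the 2 genes Cst10 and Syndig1, the latter a regulator of synapse formation. It held 82 narrow and 0 wide H3K4me3 regions, 96 H3K27me3 regions, and no succinyllysine region of 600 bp or more. A window of chromosome 3 (157000001 to 158000000) followed with 46 narrow regions, over genes including Negr1, a neuronal adhesion molecule. Then came chromosome 2, 161000001 to 162000000, with 39, at Chd6 and Ptprt. Next, with 36 each, were chromosome 2, 123000001 to 124000000, a stretch with no protein-coding gene between Sqor and Sema6d, and chromosome 8, 112000001 to 113000000, at Kars, Terf2ip and Cntnap4. Among windows of 100 kb the highest counts were 11, at chromosome 10, 123400001 to 123500000, inside Tafa2, and in 2 windows of chromosome 2 starting at 149300001 and 161400001 that touched no protein-coding gene. Across the 5 windows of 1 Mb there were 41 to 82 narrow H3K4me3 regions in each, and 0 to 3 of 1100 bp or more. H3K27me3 regions numbered 37 to 96 in each.

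At the other extreme, 94 gaps of 5 Mb or more on the autosomes and X held no narrow region. They added up to 810.9 Mb, 30.0% of the span of all chromosomes with Y included. The longest ran for 33.8 Mb of chromosome 13 (23166001 to 57003800) and enclosed 298 protein-coding genes, 228 H3K4me3 and 23 succinyllysine regions of 1100 bp or more, 1966 H3K27me3 regions, and 14 narrow H3K4me3 regions. A gap of 20.3 Mb on chromosome 9 (48059301 to 68311300) enclosed 232 genes, 183 wide and 2 narrow H3K4me3 regions. One of 13.2 Mb on chromosome 17 (23336801 to 36497300) enclosed 424 genes, 264 wide and 13 narrow H3K4me3 regions. The 8 longest gaps of the autosomes alone enclosed between 58 genes, on chromosome 15, and 424 genes, and between 2 and 14 narrow H3K4me3 regions each.

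Density differed 2.87-fold between the autosomes. The median was 2.91 narrow regions per Mb. Chromosome 2 had the highest count and density, with 791 regions and 4.42 per Mb (exact Poisson interval 4.12 to 4.74), level with chromosome 17 at 4.42 (4.01 to 4.86). Chromosomes 9 and 10 followed at 4.12 and 3.80 per Mb. Chromosomes 3, 8, 13, 6 and 18 lay between 3.24 and 3.47, chromosome 4 was at 2.91, and chromosomes 5, 1 and 16 lay between 2.51 and 2.58. The lowest were chromosomes 11 (2.09), 15 (2.01), 19 (1.94), 12 (1.92), 7 (1.88) and 14 (1.54, interval 1.33 to 1.77). In all 18 pairs of neighbours in this order the intervals overlapped, while those of the highest and lowest autosomes did not. Over the 19 autosomes rho was 0.83 with the density of narrow H3K4me3 regions, 0.11 with that of genes, and 0.15 with that of wide succinyllysine regions. The share of a chromosome's succinyllysine list that was narrow and outside H3K27me3 ran from 49.2% on chromosome 11 to 78.6% on chromosome 16.

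**Figure D4:**
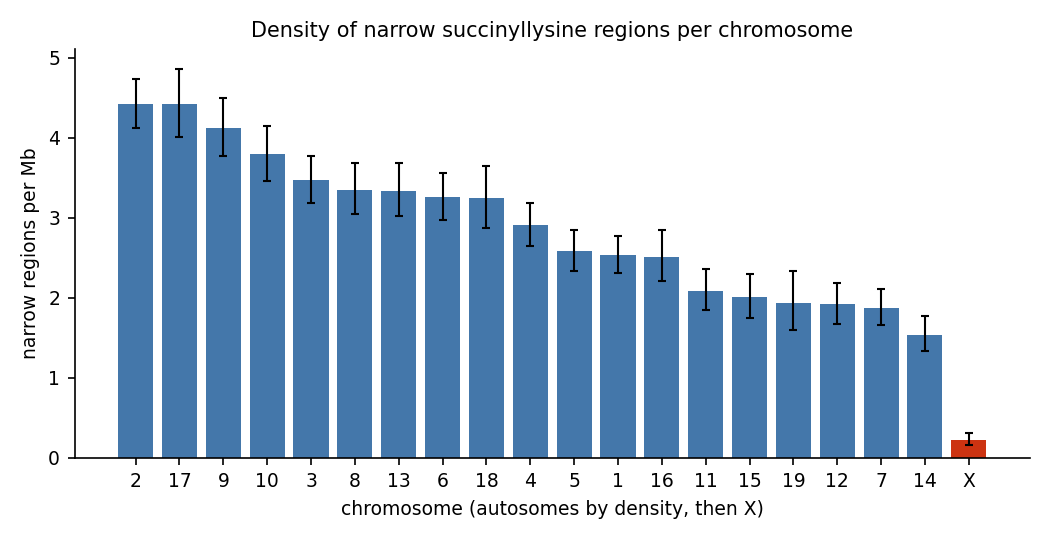
Narrow succinyllysine regions per Mb of span (y axis) for the 19 autosomes in order of density and for the X chromosome (red), with 95% exact Poisson intervals as bars. Chromosomes 2 and 17 stand at 4.42, chromosome 14 at 1.54 and X at 0.228.

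The X chromosome stood apart in number and in kind. It held 39 narrow regions, 0.228 per Mb (0.162 to 0.312), and the autosomes together 2.95 per Mb, 12.9-fold more. The same autosome to X ratio was 4.01 for narrow H3K4me3 regions, 2.44 for wide H3K4me3 regions, 16.9 for wide succinyllysine regions, 4.80 for those of 600 to 1000 bp, 0.981 for narrow and 19.2 for wide H3K27me3 regions and 1.496 for genes. The Y chromosome held 0 narrow regions. The other lists were nearly empty there too, with 2 narrow and 4 wide H3K4me3 regions and 1 narrow H3K27me3 region. This count of 0 thus carries little information.

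Narrow regions on X lay at gene ends and H3K4me3 more often than those on autosomes, a comparison chosen after the values were seen. H3K4me3 touched 18 of 39 on X (46.2%, interval 30.1 to 62.8) and 294 of 7206 on autosomes (4.08%), with adjusted p = 8.78e-15 (two-sided Fisher's exact test over 4 shares). Gene ends held 16 of the 39 (41.0%) against 1.94% on autosomes (adjusted Fisher's exact p = 9.67e-17), and the intergenic share was 41.0% against 72.5% (adjusted Fisher's exact p = 5.74e-05). The share within 10 kb of a narrow H3K4me3 region was 38.5% (interval 23.4 to 55.4) on X and 34.4% on autosomes, a difference that did not pass (adjusted Fisher's exact p = 0.614). Widths differed too, with 28.2% of the X regions at 500 bp against 5.40% on autosomes, and their part in these differences was not tested. The 20 X-linked genes with a narrow region at an end all had H3K4me3 at an end, as did 45 of the 136 such genes on autosomes and 359 of all 966 genes on X. Among them were Ogt, the enzyme that attaches N-acetylglucosamine to proteins, the cohesin genes Smc1a and Stag2, the chromatin remodeller gene Atrx and Pdha1, a subunit gene of pyruvate dehydrogenase. The 20 genes are not independent counts, because only 16 X regions lay at gene ends by midpoint and neighbouring genes can share a region.

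Narrow regions were more frequent toward the end of the chromosomes with the highest coordinates, which in mice is the end away from the centromere. With each autosome span cut into 10 equal parts, the last 2 parts held 35.9% of the narrow regions and the first 2 parts 12.6%. For genes these shares were 24.7% and 17.8%, for narrow H3K4me3 regions 37.6% and 12.6%, and for succinyllysine regions of 1100 bp or more 30.9% and 13.2%. The share of narrow regions in the last 2 parts was above 20% in 16 of 19 autosomes, from 7.84% in the lowest to 52.3% on chromosome 10.

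**Figure D5:**
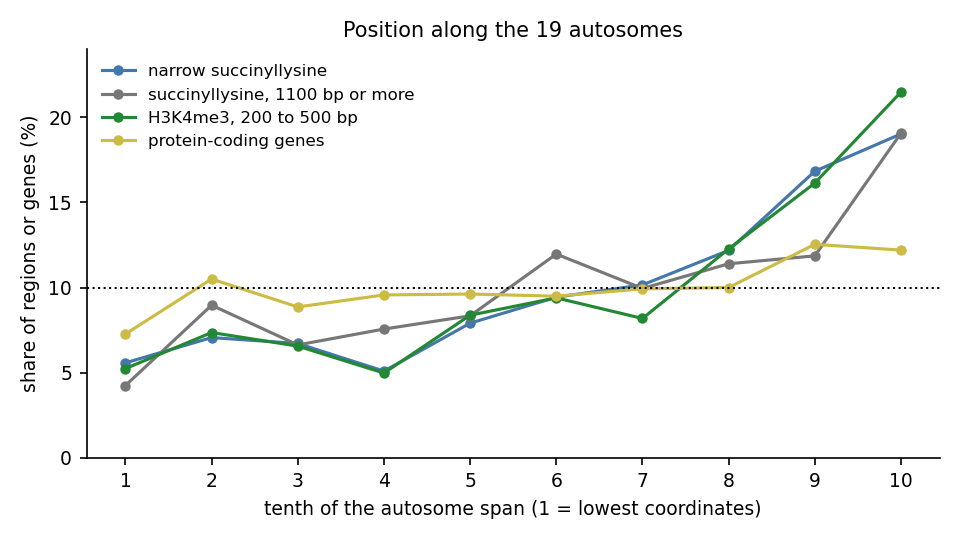
Share of regions or genes (y axis, %) in each of 10 equal parts of the autosome span (x axis, 1 is the lowest coordinates); the dotted line marks 10%. Narrow succinyllysine regions went from 5.58% in the first part to 19.03% in the last, close to narrow H3K4me3 regions (5.24% to 21.5%), and genes from 7.27% to 12.2%.

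Few genes carried a narrow region at an end. Of 21883 protein-coding genes 156 did, which is 0.713%, and 706 (3.23%) had one inside or within 1000 bp. Genes with H3K4me3 and no H3K27me3 at their ends numbered 11476, of which 62 (0.540%) had a narrow region there, and 76 of the 7437 genes lacking both marks did (1.02%). Genes of sensory receptors made up a visible part of the 156. Of 1110 odorant receptor genes, which nasal neurons use to detect smells, 29 had one at an end (2.61%), and of 355 vomeronasal receptor genes 6 did (1.69%). These genes are short and lie in tight clusters, so their counts are not independent. Examples were Olfr1018 and Olfr1303 on chromosome 2 and Olfr111 on chromosome 17, with no H3K4me3 at the ends of the 3 genes. The vomeronasal genes Vmn1r212, Vmn2r24, Vmn2r86 and Vmn2r88 likewise had no H3K4me3 at an end. Of 56 keratin-associated protein genes, which encode hair proteins, Krtap6-1 had a 400 bp region 409 bp from its end.

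Several gene groups with succinyllysine regions of 600 bp or more at their ends had no narrow one. At gene ends 0 of 32 immediate-early and growth response genes, 0 of 35 fibroblast and extracellular matrix genes, 0 of 25 actin cytoskeleton genes and 0 of 67 histone genes had a narrow region, beside 0.713% of all genes. The same lists had a succinyllysine region of 600 bp or more at an end in 15, 10, 8 and 17 genes, beside 4.68% of all genes. At a background of 0.713%, a count of 0 in lists of this size carries little information. Among 39 Hox genes Hoxd13, a patterning gene of limbs and digits, had a 400 bp narrow region 425 bp from its end that touched H3K4me3, beside 3 succinyllysine regions of 600 bp or more. Of 56 developmental transcription factor genes Lhx8 had one, a 200 bp region, in a gene with H3K27me3 at an end. Of 400 zinc finger genes, many of them transcriptional repressors, Zfp236 and Zfp182 had one, both 500 bp wide and touching H3K4me3. The Zfp982 start printed above lies inside that gene and not at an outer end.

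Some metabolic and ribosomal genes had a narrow region beside H3K4me3. Of 28 genes of the tricarboxylic acid cycle and succinate dehydrogenase, 2 had a narrow region at an end (7.14%, beside 0.713% of all genes), both encoding proteins of the pyruvate dehydrogenase complex. A share that rests on 2 genes says little about the list, and Pdha1 lies on X, where gene ends held more of the narrow regions. Dld had a 500 bp region at chromosome 12, 31351701 to 31352200, and Pdha1 had 2 regions, the nearer 400 bp wide (chromosome X, 160138701 to 160139100). The Dld region and this Pdha1 region touched H3K4me3. Among cytosolic ribosomal protein genes, Rps7 had a 400 bp region that touched H3K4me3, with 1 succinyllysine region of 600 bp or more at the same gene. None of the 4 subunit genes of succinate dehydrogenase had one, and the nearest narrow regions lay 214.5 kb from Sdha, 1051 kb from Sdhb, 1546 kb from Sdhc and 2537 kb from Sdhd. No narrow region lay at an end of 20 haematopoietic and endothelial or 17 epithelial genes, too few for a count of 0 to say anything at that background.

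Inside genes, narrow regions were found mostly in very long ones. The share of genes with a narrow region inside or within 1000 bp was 1.21% of 7924 genes under 10 kb, 4.07% of those of 50 to 200 kb, 19.8% of those of 200 to 500 kb and 58.0% of the 226 genes of 500 kb or more. Long genes have more room. The density per Mb of gene did not rise steadily with length, at 2.25 narrow regions in genes under 10 kb, 0.924 at 10 to 50 kb, 0.778 at 50 to 200 kb, 2.45 at 200 to 500 kb and 4.38 at 500 kb or more. Of 66 long genes for neuronal adhesion, channels and synapses, 57 had at least 1 (86.4%), with 405 regions in all and 5.80 per Mb of gene. Their median length was 1023 kb. Among all 989 genes of 200 kb or more, 28.5% had one. The class closer in length, the 226 genes of 500 kb or more, had one in 58.0% of cases, with 4.38 per Mb. Genes of the list were not removed from these classes, and the part of length in the difference was not tested. Of 16 genes at common fragile sites, which are also long (median 1412 kb), 9 did (56.3%), with 1.70 per Mb. Both lists were chosen for long genes, with earlier results of these data known, so their shares are descriptions alone. They share some genes, and the difference between them was not tested.

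The gene with the most narrow regions was Ptprt on chromosome 2 (161521988 to 162661147, 1139 kb), with 34. It also held 59 narrow H3K4me3 regions and no succinyllysine region of 600 bp or more. Tafa2, which encodes a secreted chemokine-like protein of the brain, and St6galnac3, a sialyltransferase gene, had 25 each in 477.2 and 526.9 kb. Clstn2, a synaptic adhesion gene, had 23, and Ptprn2 (a secretory granule phosphatase) and Gpc5 (a glypican) had 22 each. Negr1 had 20, Cntnap5c and Dab1, an adaptor in neuronal migration, 19 each, and Rgs7, a regulator of G protein signalling, 18. All 10 genes were over 400 kb, and each held between 7 and 59 narrow H3K4me3 regions and between 15 and 57 H3K27me3 regions. By density, among genes with at least 5 narrow regions, Cyp3a25, a cytochrome P450 gene, led with 5 in 32.5 kb. Gm6614 had 5 in 40.4 kb, the transporter gene Abca16 had 9 in 135.2 kb, the macrophage receptor gene Adgre1 had 8 in 124.9 kb and Syndig1 had 11 in 173.6 kb.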

How the data were processed

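The data are 3 deposited lists of regions, 1 per antibody (succinyllysine, H3K4me3, H3K27me3). The values are start and end positions, a unit recorded as other, and the authors deposited no score, height or value per sample. Bowtie2 2.2.3 and the mm10 build are named, per the submitters' processing notes. How regions were called, at which threshold, with or without input, and from which pooled samples was not given in the sources used here, and each can change how many narrow regions are listed. Every start and end lies on a grid of 100 bp, so widths are known to that step.

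Distances were counted as bases between region edges, 0 for touching or abutting, and touching means at least 1 shared bp. Genes are the 21883 protein-coding genes of a RefSeq table for GRCm38.p6. A chromosome's span is the distance between its outermost listed features (regions or genes), and unknown sequence was not removed. Shares of the chromosome span refer to the autosomes, X and Y together. The promoter table has no windows on chromosome 18. Comparison classes also lie outside H3K27me3. Differences in shares were tested by Fisher's exact test (two-sided), Benjamini-Hochberg adjusted over 7 tests (scipy 1.17.1, Python 3.11.15), and a p that the computer rounds to 0 is not printed. The 17 gene lists are described by counts, with no set test. Named genes were the 10 with most narrow regions, 5 by density among genes with at least 5, up to 4 per list, the subunits of succinate dehydrogenase, and genes at the 5 densest windows, with up to 6 promoters. Genes on X were chosen after their values were seen. The members and lists were chosen with earlier results of these data known. The procedures were tested on simulated data. Input libraries were not analysed here, and a few named genes are not reported here.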

Additional observations from a re-analysis of the deposited data

How the results depend on the processing

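All 68 recomputed differences between narrow and wider regions kept their direction and their side of the 0.05 threshold over the 15 alternatives (largest adjusted Fisher's exact p = 3.07e-31). Their size was less stable. At gene ends, narrow regions minus those of 1100 bp or more gave -16.2 points with a window of 1000 bp. It gave -4.92 with 500 bp and -27.1 with 2500 bp. Minus regions of 600 to 1000 bp, the same windows gave -28.9, -13.9 and -34.5. Of the 60 recomputed values without a test, 20 moved. With regions of 200 bp alone there were 4392 regions, a median of 1.78 per Mb of autosome, 83665 bp to the nearest gene, 73 genes with one at an end, and 22.6% with another within 10 kb. With regions of 300 to 500 bp alone these values were 2853, 1.13, 49108 bp, 87 and 16.9%, and 443 genes had one inside or within 1000 bp. Fewer regions enter these settings by construction. The share with another region within 10 kb was 34.3% when H3K27me3 was not considered, 24.3% for regions at least 5000 bp from H3K27me3 (84254.5 bp to the nearest gene), 30.1% without chromosome 2, 23.3% after joining of neighbours within 1000 bp and 30.7% without the 5 densest windows of 1 Mb. It was 22.1% for a distance of 5000 bp and 67.9% for 50000 bp. With a window of 2500 bp, 298 genes had one at an end. No paired analysis was possible because the lists hold no values per sample, and for the same reason no sample could be left out. With no depth or score in the lists, a narrow region near the caller's threshold cannot be told from a firm one.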
